A study of Drosophila melanogaster with 102 samples.

Results

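The comparison described here is between sons of high-fat-fed mothers on day 10 and on day 0, in an RNA-seq series on whole Drosophila melanogaster. The members are libraries chosen by their labels: 5 of sons labelled HFD and day 10 (m21, m22, m23, m24 and m25) and 4 of the 5 sons labelled HFD and day 0 (m6, m7, m9 and m10), that is 9 of the 102 libraries of the series. All flies of these groups, on both days, carry the white mutation of strain w1118, which removes eye pigment. Their mothers ate a high fat diet (HFD) for 7 days and were mated with males kept on a control diet (CD). The sons themselves ate CD at 25 °C under light and dark cycles, so the high fat diet is an exposure of the mother and not of the fly sequenced. The same change of age was also read in sons of mothers fed CD (5 libraries on day 10 and 5 on day 0) and of mothers fed a high sugar diet (HSD, 5 and 5). The sources used here do not say how many flies a library holds, from which moment days were counted or whether libraries came from separate cultures. The p-values therefore weigh a difference between groups only against the spread of libraries within a group, and that spread may be technical.

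The fifth library labelled as an HFD day 0 son, m8, was left out of the results because it went against its label. It held osk, an oocyte transcript, at 1328 CPM (counts scaled to library size, here over all progeny libraries) and the yolk protein transcript Yp1 at 9714 CPM, with the seminal fluid transcript Acp36DE and the testis tubulin betaTub85D at 0. In the 9 libraries used, osk was 0.348 CPM at most and Yp1 1.58 CPM at most, Acp36DE lay between 1085 and 1546 CPM on day 10 and between 1332 and 2240 CPM on day 0, and betaTub85D lay between 594 and 839 CPM on day 10 and between 746 and 879 CPM on day 0. Library totals were 8326825 to 11521418 counts on day 10 and 11725398 to 16040487 on day 0. The first principal component of log2 CPM held 65.0% of the variance and separated the days. Day 10 libraries lay between 38.8 and 41.8 on it, and day 0 libraries were spread from -34.8 (m6, nearest to day 10) to -65.0 (m9). Among the day 0 libraries, m6 was the nearest to the day 10 mean for 44.4% of the genes that rose and 43.6% of those that fell, against 25.3% of the genes that did not pass. With m8 kept as labelled, 545 genes were higher and 182 lower on day 10, and of the lists below 0 ribosomal protein genes rose, and 6 muscle and 7 nuclear oxidative phosphorylation genes fell.

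As background, the adult fly leaves the pupal case with a soft, pale body wall that is then secreted further, tanned and hardened, while flight muscle assembled in the pupa is put to use. Larval fat cells carried over from the pupa are replaced in the first days by an adult fat body, which handles lipid and sugar stores, secretes immune peptides into the blood and clears foreign compounds. The accessory glands of a male make the seminal fluid proteins passed on at mating, and the testis makes sperm throughout adult life.

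Values below are CPM scaled within these 9 libraries, listed in the order m21, m22, m23, m24, m25 for day 10 sons and m6, m7, m9, m10 for day 0 sons. Fold changes are log2 of day 10 over day 0 ± SE, and "edgeR adjusted p" is the Benjamini-Hochberg value of edgeR's quasi-likelihood F test over 12509 genes tested. Of these genes, 2723 were higher and 2079 were lower on day 10 at an adjusted p under 0.05, which is 38.4% of the genes tested, 21.8% higher and 16.6% lower. The median log2 fold change of all genes was 0.03. Rises were more numerous, and falls reached further: 31 genes rose and 106 fell over 8-fold, and 2 rose and 48 fell over 32-fold. In 1 fit of 43 libraries of sons (all but m8), here called the fit of all sons, 1240 genes were higher and 1015 lower on day 10. The 14 libraries of day 50 sons in that fit had betaTub85D at 3.896 to 591 CPM, against 594 to 879 CPM in the 9 libraries used. Also in the fit were the HSD day 10 library m27, with betaTub85D at 22.4 CPM, and 3 CD day 0 libraries with osk. These were m1, m3 and m4, at 18.03, 198 and 47.2 CPM. The part of all these libraries in the lower counts of this fit was not tested. Counts that the fit of all sons moves by over 1.5 times are given beside the lists. All counts over lists are to be set against the 21.8% and 16.6% of all genes tested that rose and fell. The groups did not overlap at all for 32.1% of the genes tested, 18.7% with day 10 higher (2341 genes) and 13.4% with day 10 lower (1675 genes). In whole flies, fewer cells of a type and less RNA per cell cannot be told apart.

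**Figure D1:**
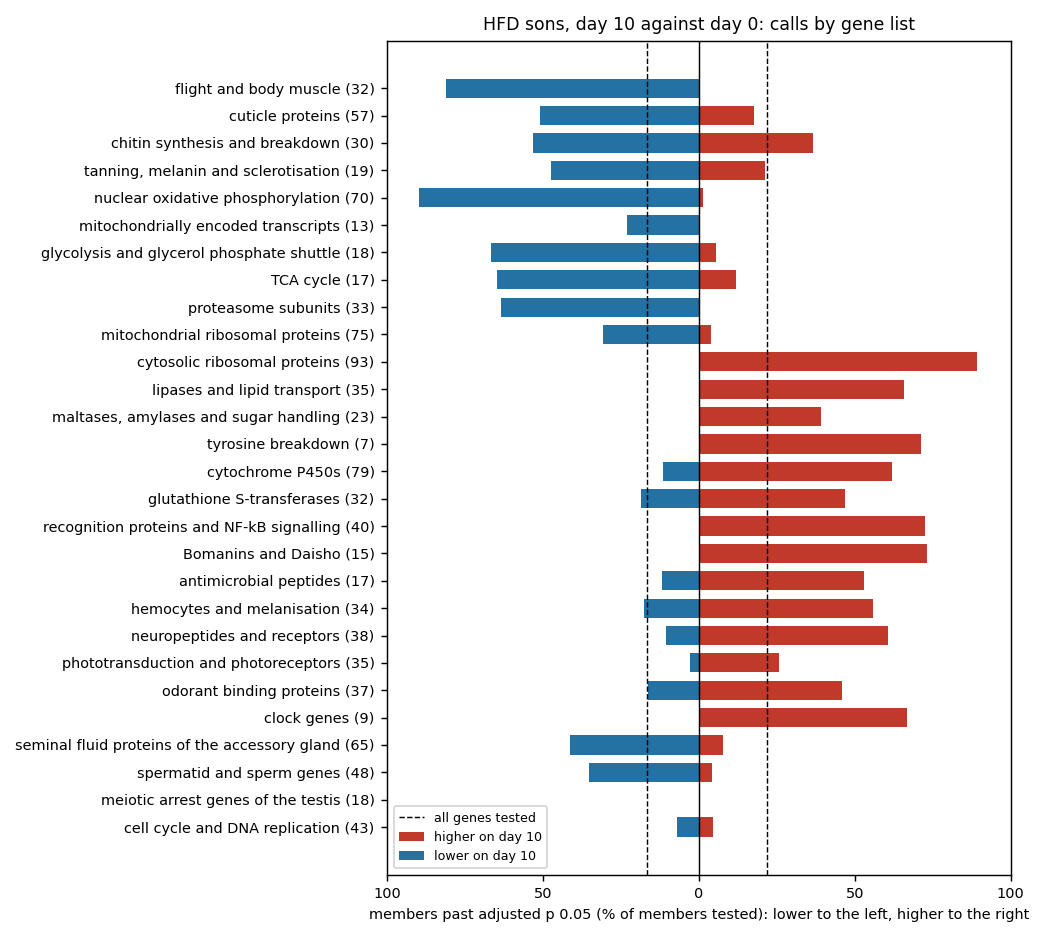
Share of the tested members of 28 gene lists that passed the test in HFD sons, day 10 against day 0, in % of members, with falls to the left and rises to the right, the number tested in parentheses and dashed lines at the 16.6% and 21.8% of all genes. The bars of muscle, nuclear oxidative phosphorylation and cytosolic ribosomal proteins run furthest, the first 2 to the left and the third to the right.

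Body wall genes made up many of the largest falls. Of the 12 largest named by a rule of size, Acp1, Ccp84Ab, Acp65Aa, Cpr92F, Vajk3 and Cpr97Ea encode cuticle proteins. Acp1, which encodes an adult cuticle protein (chr2L:7740562-7741537, build BDGP6.54), was at 1.69, 0.842, 0.422, 1.78 and 0.598 CPM in day 10 sons, against 2713, 3697, 5079.9 and 4296 CPM in day 0 sons. Every day 0 library was high, and no day 10 library reached 2 CPM (-11.901 ± 0.36, edgeR adjusted p = 8.16e-09). The adult cuticle protein gene Acp65Aa was at 0.282, 0.168, 0.253, 0.119 and 0.256 CPM in day 10 sons, against 302, 333, 196 and 372 CPM in day 0 sons, and m9 was its lowest day 0 library (-10.35 ± 0.27, edgeR adjusted p = 2.69e-09). Cpr92F, of the chitin-binding Cpr family, averaged 0.454 ± 0.194 CPM in day 10 sons and 414 ± 97.8 CPM in day 0 sons (SD, n = 5 and 4), and its groups did not overlap (-9.79 ± 0.25, edgeR adjusted p = 2.69e-09). No count of Ccp84Ab was found in any day 10 library, against 1866 counts over the 4 day 0 libraries, so it was at least 639-fold lower at a floor of 3 counts over the group (edgeR adjusted p = 1.79e-06). Vajk3 fell likewise, to 1.68 ± 0.204 CPM in day 10 sons, against 737 ± 344 CPM in day 0 sons (-8.77 ± 0.38, edgeR adjusted p = 1.13e-07). The smallest p-value of all genes belonged to CG7203 (chr2L:7752170-7753186), whose product the files do not describe, at 12.4, 11.95, 9.54, 11.8 and 11.4 CPM in day 10 sons, against 2728, 3301, 4158 and 3716 CPM in day 0 sons (-8.25 ± 0.16, edgeR adjusted p = 7.82e-10). Its neighbour CG7214 averaged 1.203 ± 0.523 CPM in day 10 sons and 867 ± 116 CPM in day 0 sons (-9.46 ± 0.23, edgeR adjusted p = 2.02e-09). Both lie close to Acp1 on chromosome arm 2L. The next smallest p-values were those of Cpr76Bd and zye. Cpr76Bd averaged 6.25 ± 1.06 CPM in day 10 sons and 167 ± 7.79 CPM in day 0 sons (-4.74 ± 0.11, edgeR adjusted p = 2.02e-09). The apical matrix gene zye averaged 0.712 ± 0.131 CPM in day 10 sons and 34.2 ± 3.38 CPM in day 0 sons (-5.56 ± 0.14, edgeR adjusted p = 2.02e-09). None of these genes had a day 10 library within the day 0 range, which the rule that named them required.

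Of 128 genes in the list of cuticle proteins, 57 passed the filter on low counts, which keeps a gene that is high on only 1 of the 2 days. Among those 57, 29 fell and 10 rose, with a median log2 fold change of -1.18. Their summed level was 623 to 689 CPM in day 10 sons, against 4104 to 6951 CPM in day 0 sons. Acp1 is in none of the lists, so these counts and this sum leave it out. The day 0 libraries differed among themselves, with m6 at 4104 CPM and m9 at 6951 CPM, and neither reached the day 10 range. Family members also rose (5 in the fit of all sons), and Cpr67Fb rose furthest. It was at 44.5, 38.6, 21.4, 33.6 and 26.6 CPM in day 10 sons, against 1.21, 1.68, 2.04 and 2.25 CPM in day 0 sons (4.19 ± 0.27, edgeR adjusted p = 1.48e-06). Its lowest day 10 library, m23, lay far above its highest day 0 library, m10.

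Genes that lay down and shape chitin, the polysaccharide of the cuticle, moved in both directions, and the falls were the larger. Of 30 tested, 16 fell and 11 rose (median -0.65). The chitin synthase gene kkv was at 5.74, 6.903, 6.67, 4.52 and 5.12 CPM in day 10 sons, against 60.3, 150.2, 263 and 129 CPM in day 0 sons (-4.69 ± 0.38, edgeR adjusted p = 7.51e-06). The chitinase gene Cht7 averaged 3.11 ± 0.819 CPM in day 10 sons and 97.4 ± 38.5 CPM in day 0 sons (-4.96 ± 0.29, edgeR adjusted p = 9.37e-07). The chitin deacetylase genes serp (-4.83 ± 0.35) and verm (-4.55 ± 0.34) fell with it, as did Gasp, which encodes a chitin-binding protein (-4.83 ± 0.38). In each of these 5 genes m6 was the lowest and m9 the highest day 0 library, and no day 0 library reached down to the day 10 values. Of 19 genes for tanning, melanin and sclerotisation, 9 fell and 4 rose (median -0.36), with 1 rise in the fit of all sons. The pigmentation gene y was at 0.0941, 0.168, 0.0844, 0.119 and 0.171 CPM in day 10 sons, against 17.003, 16.997, 17.01 and 12.1 CPM in day 0 sons (-6.83 ± 0.22, edgeR adjusted p = 1.43e-08). Its 4 day 0 libraries were even but for a lower m10. The enzyme genes of this list had smaller log2 fold changes: e, a beta-alanyl-dopamine synthase, had -2.57 ± 0.25, edgeR adjusted p = 2.51e-05. For Pu, which makes the cofactor of tyrosine hydroxylase, the change was -1.497 ± 0.09, edgeR adjusted p = 1.02e-06, and for ple, tyrosine hydroxylase itself, -1.41 ± 0.23, edgeR adjusted p = 0.000774. In contrast to y, its relative yellow-f2, linked to melanin formation, rose to 41.8, 41.5, 34.2, 50.4 and 47.04 CPM in day 10 sons, against 15.6, 18.1, 11.5 and 13.8 CPM in day 0 sons (1.54 ± 0.15, edgeR adjusted p = 2.4e-05).

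**Figure D2:**
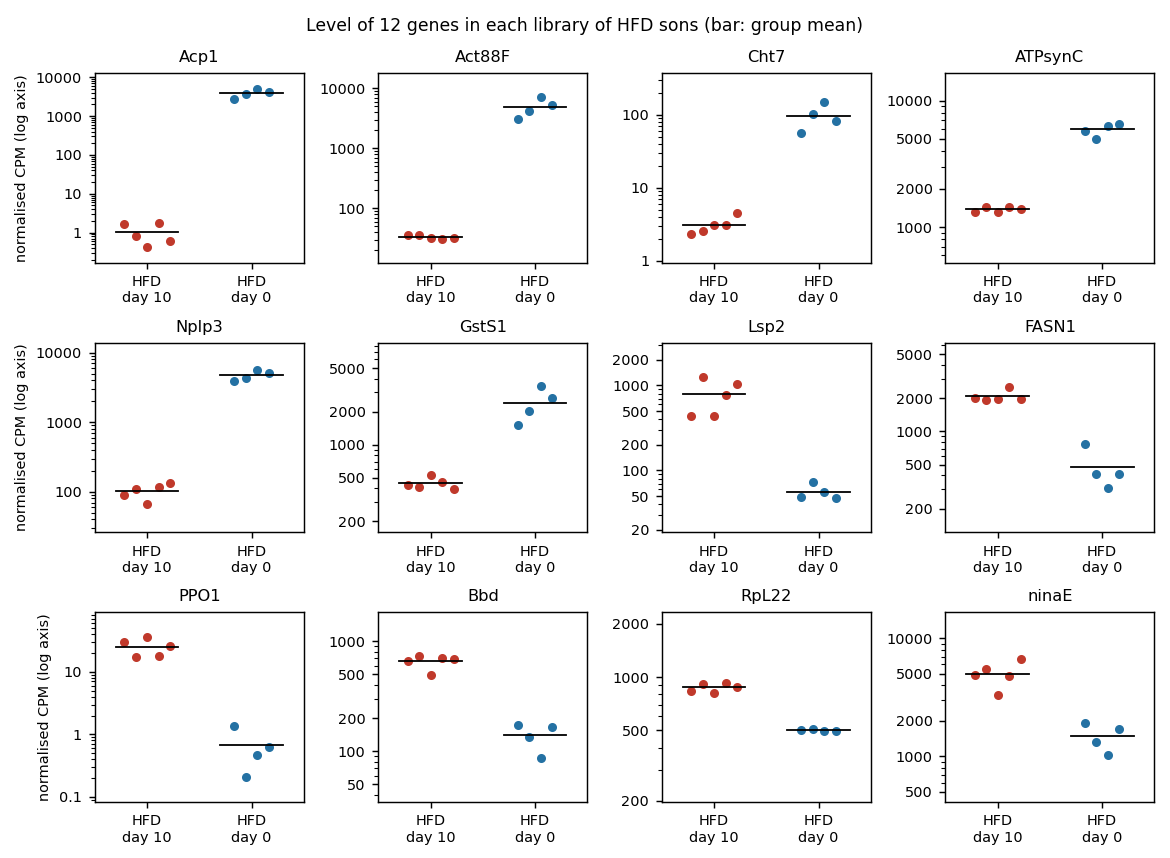
Normalised CPM on a log axis of 12 genes in each of the 5 day 10 and 4 day 0 libraries of HFD sons, 1 point per library and a bar at each group mean. In all 12 panels the day 10 and day 0 points do not overlap, and Acp1 shows the widest gap, with the 5 day 10 points below 2 CPM and the 4 day 0 points at 2713 CPM or more.

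The larval storage genes moved in opposite directions. Of 12 genes in that list 6 passed the filter, and 3 fell and 3 rose. Fbp1, the receptor for larval serum proteins, had 1 count in the 5 day 10 libraries together and 1470 counts over the 4 day 0 libraries, at 8.62, 31.3, 39.5 and 28.3 CPM each (edgeR adjusted p = 5.34e-06). Its relative by name Fbp2, an alcohol dehydrogenase-like storage protein, was at 0.376, 0.589, 0.338, 0.119 and 0.341 CPM in day 10 sons, against 7.41, 25.9, 30.99 and 25.8 CPM in day 0 sons (-5.91 ± 0.49, edgeR adjusted p = 9.17e-06). Lsp1gamma, a larval serum protein gene, was at 0.282, 0.842, 0.253, 1.55 and 1.195 CPM in day 10 sons, against 52.5, 20.98, 45.2 and 22.6 CPM in day 0 sons (-5.46 ± 0.44, edgeR adjusted p = 7.9e-06). For all 3 that fell the groups did not overlap, and m6 held the least Fbp1 and the most Lsp1gamma of day 0. Another larval serum protein gene, Lsp2, was among the largest rises, at 435, 1271, 433, 770.1 and 1048 CPM in day 10 sons, against 48.8, 72.2, 55.5 and 47.001 CPM in day 0 sons (3.82 ± 0.36, edgeR adjusted p = 2.25e-05). Lsp1beta rose as well, to 105, 143, 79.04, 118 and 97.2 CPM in day 10 sons, against 13.9, 21.3, 35.8 and 21.4 CPM in day 0 sons (2.23 ± 0.26, edgeR adjusted p = 8.32e-05). For Lsp1alpha the groups overlapped, at 12.4, 13.7, 3.63, 10.6 and 10.7 CPM in day 10 sons, against 2.42, 1.89, 5.19 and 3.15 CPM in day 0 sons (1.68 ± 0.39, edgeR adjusted p = 0.00641), and it did not pass in the fit of all sons.

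Muscle transcripts were lower on day 10 almost throughout. Of 32 flight and body muscle genes tested, 26 fell and 0 rose (median -1.88), and the 26 that fell had groups that did not overlap. Over all genes tested, 13.4% did not overlap with day 10 lower. Together the 32 took 1.92 to 2.11% of the counts of day 10 sons, against 6.79 to 10.4% in day 0 sons. The flight muscle actin gene Act88F (chr3R:15439969-15442177) was at 35.3, 35.8, 31.7, 31.02 and 32.3 CPM in day 10 sons, against 3094, 4173, 7143 and 5355 CPM in day 0 sons. Day 10 libraries were close to each other, and among day 0 libraries m9 was highest and m6 lowest (-7.22 ± 0.25, edgeR adjusted p = 2.06e-08). The flight muscle protein gene fln averaged 38.1 ± 4.94 CPM in day 10 sons and 1758 ± 672 CPM in day 0 sons (-5.53 ± 0.26, edgeR adjusted p = 2.06e-07). Act79B, another adult muscle actin gene, was at 500.04, 577, 466, 612 and 511 CPM in day 10 sons, against 5762, 6566, 7296 and 7113 CPM in day 0 sons (-3.65 ± 0.12, edgeR adjusted p = 1.25e-08). Mlc2, a myosin light chain gene, averaged 1277 ± 95.7 CPM in day 10 sons and 14392 ± 3189 CPM in day 0 sons (-3.49 ± 0.15, edgeR adjusted p = 1.35e-07). Both were lower in all 5 day 10 libraries. The titin-like gene sls did not pass, with a log2 fold change of 0.14 ± 0.08, edgeR adjusted p = 0.217, nor did Argk1, arginine kinase, at -0.38 ± 0.14, edgeR adjusted p = 0.0569. Argk1 did pass as a fall by DESeq2 (DESeq2 adjusted p = 0.0153) and with median-of-ratios scaling (edgeR adjusted p = 0.0455). It also passed without m7, without m9, and without both m6 and m9 (edgeR adjusted p = 0.047, 0.0121 and 0.049). Without m9 sls passed as a rise (0.21, edgeR adjusted p = 0.0484).

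Nuclear genes of the respiratory chain and the ATP synthase were lower on day 10 in near unison, and most transcripts of the mitochondrial genome did not pass. Of 70 nuclear oxidative phosphorylation genes tested, 63 fell and 1 rose (median -0.87), and in all 63 the groups did not overlap. The share without overlap and lower on day 10 was 13.4% over all genes tested. The c subunit gene of the ATP synthase, ATPsynC, was at 1311, 1440.5, 1308, 1445 and 1398 CPM in day 10 sons, against 5763, 4934, 6342 and 6573 CPM in day 0 sons (-2.096 ± 0.100, edgeR adjusted p = 2.26e-07). Cyt-c-p, cytochrome c, was at 388, 408, 375, 451 and 419.5 CPM in day 10 sons, against 1091, 1468, 2094 and 1919 CPM in day 0 sons (-2.01 ± 0.17, edgeR adjusted p = 9.3e-06). Neither gene had a day 10 library within the day 0 range. The 1 gene that rose, named after its values were seen, was the complex I subunit gene ND-51, at 823, 816, 741, 776 and 786 CPM in day 10 sons, against 623, 507, 523 and 684 CPM in day 0 sons (0.43 ± 0.096, edgeR adjusted p = 0.00505), which did not pass in the fit of all sons. Of the 13 mitochondrially encoded transcripts, 3 fell and 0 rose (median -0.07), and only 1 fell without m22, m25, m6 or m10 and 0 in the fit of all sons. Of the 3 that passed, mt:ND4 changed furthest, and it fell to 838, 748, 701, 755 and 658 CPM in day 10 sons, against 888, 954, 1023 and 1492 CPM in day 0 sons (-0.56 ± 0.15, edgeR adjusted p = 0.0116). The largest log2 fold change of the 13 was a rise of 1.16 that did not pass.

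Sugar oxidation genes went the same way as the nuclear respiratory genes. Of 18 glycolysis and glycerol phosphate shuttle genes, 12 fell and 1 rose (median -0.56), and of 17 TCA cycle genes, 11 fell and 2 rose (median -0.603). The citrate synthase gene kdn was at 549, 567, 587, 579.5 and 564 CPM in day 10 sons, against 2201, 1911, 3085 and 2643 CPM in day 0 sons (-2.11 ± 0.13, edgeR adjusted p = 1.07e-06). Idh3a, a subunit gene of isocitrate dehydrogenase, was at 261, 268, 246, 248 and 252 CPM in day 10 sons, against 949, 681, 1058 and 979 CPM in day 0 sons (-1.85 ± 0.11, edgeR adjusted p = 1.38e-06). Both ends of the glycerol phosphate shuttle, which passes reducing power to the mitochondria of flight muscle, were lower. The log2 fold change was -1.700 ± 0.13, edgeR adjusted p = 4.21e-06 for Gpdh1 and -1.85 ± 0.11, edgeR adjusted p = 8.38e-07 for Gpo1. Pdk, the kinase that switches off the pyruvate dehydrogenase complex at the entry to the cycle, went the other way and had one of the 6 smallest p-values among rises, at 192, 214, 217, 222 and 219 CPM in day 10 sons, against 96.2, 80.6, 86.7 and 88.3 CPM in day 0 sons (1.27 ± 0.07, edgeR adjusted p = 7.28e-07). Hex-C, a hexokinase gene, was the 1 glycolysis gene that rose, to 241, 234, 289, 321 and 235 CPM in day 10 sons, against 107, 152, 95.3 and 113 CPM in day 0 sons (1.18 ± 0.15, edgeR adjusted p = 0.000153).

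Most cytosolic ribosomal protein genes rose, by small amounts, and fewer did so in the fit of all sons. Of 93 tested, 83 rose and 0 fell (median 0.54), with 24 rises in the fit of all sons and 0 with m8 kept. Their sum was 59281 to 68089 CPM in day 10 sons, against 38634 to 45876 CPM in day 0 sons. RpL22 was at 838, 918, 812, 929.9 and 882 CPM in day 10 sons, against 504, 512, 498 and 495 CPM in day 0 sons (0.802 ± 0.07, edgeR adjusted p = 9.3e-06). RpLP0 of the ribosomal stalk was at 1015, 1062, 953, 1099 and 965 CPM in day 10 sons, against 634, 588, 437 and 591 CPM in day 0 sons, with m9 the lowest (0.86 ± 0.11, edgeR adjusted p = 0.000156). RpL5 rose by 0.81 ± 0.08 on the log2 scale (edgeR adjusted p = 2.69e-05). In all 3 the lowest day 10 library, m23, lay above every day 0 library. Of 22 further genes for translation and growth, 7 rose and 2 fell, and the risen count was 11 without m9 and 4 in the fit of all sons, where 0 fell. The elongation factor gene eEF1alpha1 averaged 5636 ± 454 CPM in day 10 sons and 2577 ± 369 CPM in day 0 sons (1.13 ± 0.11, edgeR adjusted p = 3.58e-05). Myc, a regulator of ribosome production, was at 62.4, 50.6, 52.4, 56.1 and 61.1 CPM in day 10 sons, against 23.9, 22.7, 31.1 and 21.8 CPM in day 0 sons (1.18 ± 0.12, edgeR adjusted p = 2.69e-05). Mitochondrial ribosomal protein genes did not follow the cytosolic ones, since 23 of 75 fell and 3 rose, or 12 and 0 in the fit of all sons (median -0.19), with mRpL28 at 67.6, 69.4, 68.7, 66.6 and 65.4 CPM in day 10 sons, against 116, 119, 118 and 126 CPM in day 0 sons (-0.83 ± 0.05, edgeR adjusted p = 1.33e-06).

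Proteasome subunit genes were lower on day 10, and the summed level of the day 0 library m6 lay below all day 10 libraries. Of 33 tested, 21 fell and 0 rose (median -0.48), and the groups did not overlap for 2 of them. Their summed level was 3597, 3354, 3674, 3584 and 3312 CPM in day 10 sons, against 3291, 5932, 6695 and 4365 CPM in day 0 sons. The count that fell was 31 without m6, 9 without m7 and 10 without m9. Rpt4, an ATPase of the regulatory particle, was at 67.5, 64.7, 68.6, 71.4 and 65.7 CPM in day 10 sons, against 73.01, 155, 176 and 112 CPM in day 0 sons (-0.94 ± 0.204, edgeR adjusted p = 0.00443). Its m6 value was just above the day 10 range, and m7 and m9 were over 2-fold above it. Among 27 heat shock protein genes 5 rose and 7 fell (3 and 1 in the fit of all sons), where 21.8% and 16.6% of all genes tested did. Hsp22, a small heat shock protein of mitochondria, rose furthest, at 126, 121, 80.3, 105 and 131 CPM in day 10 sons, against 14.02, 12.1, 7.81 and 9.71 CPM in day 0 sons (3.37 ± 0.198, edgeR adjusted p = 9.37e-07).

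**Figure D3:**
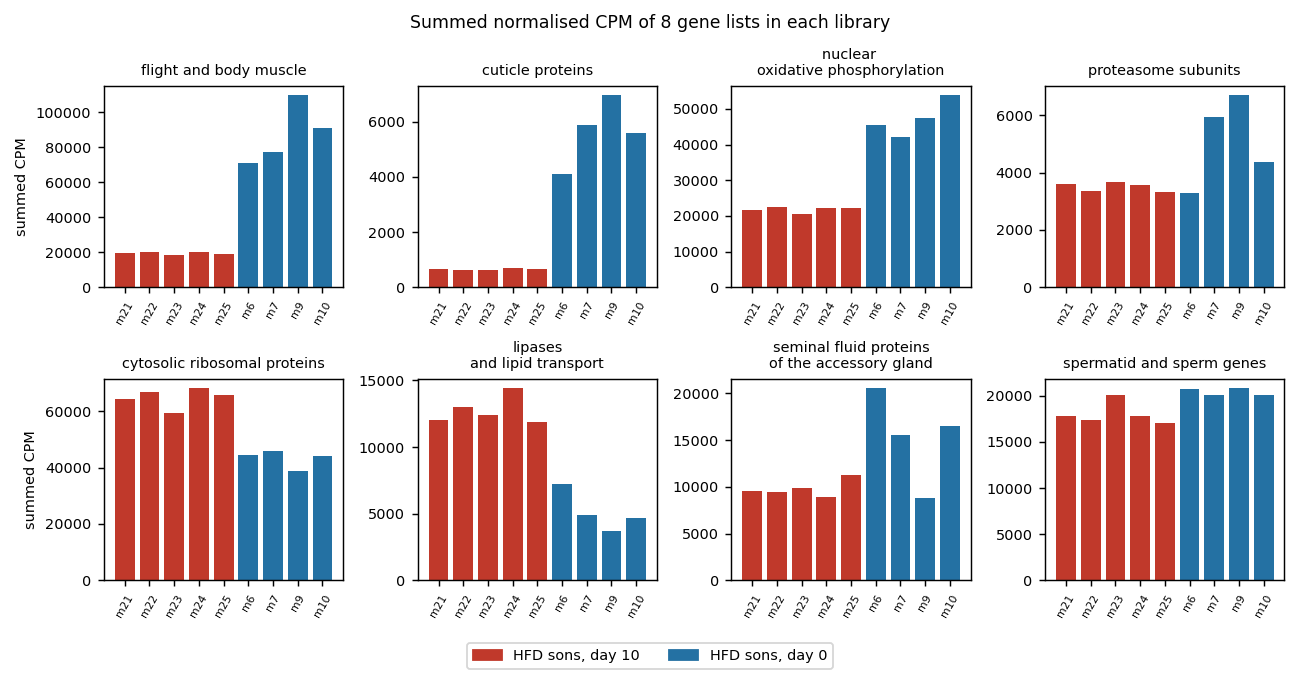
Summed normalised CPM of 8 gene lists in each library of HFD sons, 1 bar per library with day 10 on the left. Muscle, cuticle and nuclear oxidative phosphorylation sums are lower in all 5 day 10 libraries, ribosomal protein and lipid sums are higher in all 5, and the m6 proteasome bar and the m9 seminal fluid bar are just below the day 10 bars.

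Genes in a list of lipases, lipid synthesis and lipid transport were mostly higher on day 10, and the lipase genes Lip3 and Lip4 were among the rises. Of 35 tested, 23 rose and 0 fell (median 0.74), and the sum was 11874 to 14401 CPM in day 10 sons, against 3719.8 to 7219 CPM in day 0 sons, with m6 the highest of day 0 and m9 the lowest. FASN1, fatty acid synthase, was at 1987, 1928, 1971, 2531 and 1959 CPM in day 10 sons, against 765, 415, 307 and 412 CPM in day 0 sons (2.13 ± 0.24, edgeR adjusted p = 6.83e-05). The gene for the triglyceride transfer protein, Mtp, was at 76.4, 79.9, 71.7, 97.5 and 82.1 CPM in day 10 sons, against 26.7, 27.1, 17.8 and 21.8 CPM in day 0 sons (1.803 ± 0.14, edgeR adjusted p = 5.1e-06). In both genes every day 10 library lay above every day 0 library. Of 11 cuticular hydrocarbon and pheromone genes tested, some of which are also in the lipid list, 7 rose and 2 fell (1 fell in the fit of all sons). The desaturase gene Desat1 was at 1938, 2078, 2011, 2488 and 1853 CPM in day 10 sons, against 1054, 561, 371 and 585 CPM in day 0 sons (1.69 ± 0.25, edgeR adjusted p = 0.000472). Cyp4g1, the P450 that completes hydrocarbon synthesis in oenocytes, was at 14492, 11202, 17659, 18714 and 8448 CPM in day 10 sons, against 6596, 3020.5, 1456 and 2030.5 CPM in day 0 sons (2.11 ± 0.43, edgeR adjusted p = 0.00304). It varied widely within each day, and m6 was by far its highest day 0 library. Elo68alpha, an elongase for a male pheromone, was among the 2 that fell, at 51.4, 51.6, 50.2, 55.03 and 42.7 CPM in day 10 sons, against 184, 134, 104 and 122 CPM in day 0 sons (-1.44 ± 0.15, edgeR adjusted p = 3.65e-05).

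Digestion of sugars and breakdown of tyrosine rose at the transcript level. Of 23 maltase, amylase and sugar transport genes, 9 rose and 0 fell (median 0.91), with 5 rises in the fit of all sons. The glucosidase gene tobi, a target of insulin-like peptide and adipokinetic hormone signals, was at 366, 411, 636, 643 and 426 CPM in day 10 sons, against 31.4, 70.4, 77.7 and 34.7 CPM in day 0 sons (3.21 ± 0.32, edgeR adjusted p = 3.27e-05). Amy-p was at 345, 313, 688, 357 and 382 CPM in day 10 sons, against 98.3, 86.7, 103 and 230.2 CPM in day 0 sons, with m23 and m10 each above the rest of its group (1.69 ± 0.33, edgeR adjusted p = 0.00242), and it did not pass in the fit of all sons. Amy-d, its near-identical copy, rose by 2.08 ± 0.38 on the log2 scale (edgeR adjusted p = 0.00159), and how reads were divided between the copies is uncertain. CG7997, a gene that no list holds and that ranked among the smallest p-values of all rises, was at 104, 116, 92.7, 119 and 113 CPM in day 10 sons, against 23.9, 18.9, 14.8 and 17.2 CPM in day 0 sons (2.55 ± 0.14, edgeR adjusted p = 5.37e-07). Of 7 tyrosine breakdown genes 5 rose and 0 fell (median 1.58). Homogentisate dioxygenase, hgo, was at 76.4, 87.3, 72.5, 73.7 and 86.3 CPM in day 10 sons, against 18.1, 19.5, 19.04 and 23.5 CPM in day 0 sons (1.99 ± 0.098, edgeR adjusted p = 2.84e-07). The tyrosine aminotransferase gene Tat averaged 164 ± 16.96 CPM in day 10 sons and 43.7 ± 8.58 CPM in day 0 sons (1.91 ± 0.13, edgeR adjusted p = 2.78e-06). Hn, phenylalanine hydroxylase, averaged 231 ± 36.4 CPM in day 10 sons and 74.7 ± 16.3 CPM in day 0 sons (1.63 ± 0.16, edgeR adjusted p = 2.82e-05). Hpd, the dioxygenase one step before hgo, averaged 319.7 ± 58.1 CPM in day 10 sons and 117 ± 27.2 CPM in day 0 sons (1.45 ± 0.18, edgeR adjusted p = 0.000149). Day 10 and day 0 libraries of all 4 genes did not overlap.

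Most detoxification genes that passed were higher on day 10. Of 79 cytochrome P450 genes, 49 rose and 9 fell (median 0.69), and in 42 of the 49 the groups did not overlap. Over all genes tested 2723 rose, and 2341 did not overlap with day 10 higher, so such a count is not particular to this list. Cyp309a1 was at 43.2, 46.4, 48.7, 47.3 and 43.5 CPM in day 10 sons, against 8.46, 9.09, 4.99 and 7.55 CPM in day 0 sons (2.61 ± 0.15, edgeR adjusted p = 8.38e-07). Cyp4ac2 was at 39.2, 37.6, 37.7, 40.4 and 42.3 CPM in day 10 sons, against 11.7, 5.25, 3.48 and 5.39 CPM in day 0 sons (2.62 ± 0.27, edgeR adjusted p = 4.24e-05). In both genes the groups did not overlap and m9 was the lowest library. Of 32 glutathione S-transferase genes, 15 rose and 6 fell (median 0.26), or 7 and 3 in the fit of all sons. GstE9 was at 186, 181, 175, 204 and 192 CPM in day 10 sons, against 54.6, 55.2, 30.7 and 43.05 CPM in day 0 sons (2.03 ± 0.16, edgeR adjusted p = 5.94e-06). GstS1, a transferase gene known for high expression in flight muscle, went the other way, at 429, 414, 531, 453 and 397 CPM in day 10 sons, against 1503, 2022, 3407 and 2659 CPM in day 0 sons (-2.43 ± 0.21, edgeR adjusted p = 1.07e-05). As for Act88F, m9 was its highest and m6 its lowest day 0 library. Of 27 UDP-glycosyltransferase genes, 9 rose and 4 fell (median 0.08), or 4 and 1 in the fit of all sons, and Ugt302E1 changed furthest, at 1.51, 1.599, 1.35, 2.14 and 1.62 CPM in day 10 sons, against 0, 0.49, 0.197 and 0.0899 CPM in day 0 sons (2.93 ± 0.52, edgeR adjusted p = 0.00132). AOX3, an aldehyde oxidase gene with one of the 6 smallest p-values among rises, was at 196, 195, 203, 219.99 and 204 CPM in day 10 sons, against 95.2, 94.01, 83.3 and 85.5 CPM in day 0 sons (1.19 ± 0.07, edgeR adjusted p = 7.47e-07).

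Most immune genes that passed were higher on day 10, among recognition proteins and secreted peptides. Of 40 recognition and NF-kB signalling genes, 29 rose and 0 fell (median 0.49), with 10 rises in the fit of all sons. GNBP3, a sensor of fungal glucan, was at 80.7, 84.7, 77.9, 88.9 and 83.4 CPM in day 10 sons, against 30.7, 32.1, 29.9 and 27.6 CPM in day 0 sons, the smallest p-value among rises at 10 CPM or more (1.46 ± 0.07, edgeR adjusted p = 1.68e-07). PGRP-SB1, a peptidoglycan recognition protein gene, rose by 1.79 ± 0.21 on the log2 scale (edgeR adjusted p = 8.78e-05). The 2 days did not overlap for either gene, and PGRP-SB1 did not pass in the fit of all sons. Of 15 Bomanin and Daisho genes, short peptides secreted under the Toll pathway, 11 rose and 0 fell (median 1.44), with 4 rises in the fit of all sons. Bbd, an immune gene that works with the short Bomanins, was at 659, 735, 489, 708 and 692 CPM in day 10 sons, against 171, 134, 86.7 and 167 CPM in day 0 sons (2.23 ± 0.203, edgeR adjusted p = 1.74e-05). BomS6 was at 72.9, 96.4, 57.5, 78.4 and 125 CPM in day 10 sons, against 19.02, 22.3, 23.97 and 17.9 CPM in day 0 sons (2.05 ± 0.21, edgeR adjusted p = 3.78e-05). Reads of these near-identical peptides may have been shared between family members.

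Antimicrobial peptides did not all move together. Of 17 tested, 9 rose and 2 fell (median 0.75), but 2 and 1 in the fit of all sons, where BaraA1, Drs, AttA and Dro, described here, did not pass. BaraA1, a Baramicin gene, was at 242, 236, 192, 263 and 226 CPM in day 10 sons, against 39.5, 96.7, 55.7 and 95.8 CPM in day 0 sons (1.69 ± 0.24, edgeR adjusted p = 0.000362). Drs, the antifungal peptide drosomycin, was lower on day 10, at 12.4, 10.2, 8.87, 13.7 and 13.8 CPM in day 10 sons, against 40.6, 45.8, 57.98 and 57.9 CPM in day 0 sons (-2.104 ± 0.16, edgeR adjusted p = 4.27e-06). AttA, an attacin gene, was at 3.76, 4.04, 4.31, 4.52 and 6.06 CPM in day 10 sons, against 0.645, 0.49, 0.591 and 0.809 CPM in day 0 sons (2.84 ± 0.24, edgeR adjusted p = 9.74e-06). Dro, drosocin, was at 1.59998, 4.46, 3.04, 1.07 and 14.4 CPM in day 10 sons, against 0.0806, 0.839, 0.854 and 0.989 CPM in day 0 sons, high in m25 and close to 0 in m6 (2.83 ± 0.81, edgeR adjusted p = 0.0188). It passed with each of the 9 libraries left out in turn, and not with m6 and m9 both left out (edgeR adjusted p = 0.0966). Of 8 Turandot stress peptide genes, 4 passed the filter on low counts, and these 4 rose (2 in the fit of all sons). TotA was at 164, 178, 124, 157 and 147 CPM in day 10 sons, against 47.8, 17.8, 7.22 and 16.8 CPM in day 0 sons (2.79 ± 0.43, edgeR adjusted p = 0.000515). The day 0 value of m6 was the closest to day 10. Tsf1, the iron-binding transferrin of the blood, was at 1369, 1859, 1313, 1949 and 1657 CPM in day 10 sons, against 206, 242, 243 and 257 CPM in day 0 sons (2.78 ± 0.14, edgeR adjusted p = 3.58e-07).

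Of 34 genes for blood cells and melanisation, 19 rose and 6 fell (median 0.65), with 11 rises in the fit of all sons. PPO1, a prophenoloxidase that drives melanin formation (chr2R:17887220-17889973), was at 30.02, 17.004, 35.7, 17.8 and 25.7 CPM in day 10 sons, against 1.37, 0.21, 0.46 and 0.629 CPM in day 0 sons, the second largest rise by the naming rule (5.27 ± 0.401, edgeR adjusted p = 5.26e-06). Its relative PPO2 was at 34.9, 25.8, 35.2, 24.4 and 36.7 CPM in day 10 sons, against 7.17, 7.69, 4.07 and 6.83 CPM in day 0 sons (2.29 ± 0.200, edgeR adjusted p = 1.26e-05). Tep2, a thioester protein, was at 191, 227, 192, 256 and 237 CPM in day 10 sons, against 64.7, 54.3, 43.99 and 47.9 CPM in day 0 sons (2.07 ± 0.13, edgeR adjusted p = 1.67e-06). All 5 day 10 libraries lay above all 4 day 0 libraries in these 3 genes. NimC4, a receptor for the uptake of dying cells, fell to 0.565, 0.0842, 0.169, 0.238 and 0.0854 CPM in day 10 sons, against 4.996, 9.58, 5.71 and 5.75 CPM in day 0 sons (-4.82 ± 0.41, edgeR adjusted p = 1.1e-05). Among 5 digestive lysozyme genes, counting LysC, which is annotated as a pseudogene, 3 fell and 0 rose. They are near-identical copies whose reads may be shared. LysD was at 40.8, 41.5, 45.4, 47.8 and 72.3 CPM in day 10 sons, against 735, 107, 44.8 and 274 CPM in day 0 sons, with m6 far above the rest and m9 inside the day 10 range (-2.55 ± 0.64, edgeR adjusted p = 0.00944). The pseudogene LysC, whose annotated end overlaps LysD, was the 1 member of this list whose groups did not overlap. It was at 1.88, 2.44, 4.14, 2.496 and 3.41 CPM in day 10 sons, against 118, 15.2, 6.24 and 34.1 CPM in day 0 sons (-3.89 ± 0.77, edgeR adjusted p = 0.00248).

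Peptide hormone genes of the nervous system mostly rose, and synaptic genes that passed mostly fell. Of 38 neuropeptide and receptor genes, 23 rose and 4 fell (median 0.65), with 7 falls by DESeq2. The satiety peptide gene Dsk was at 24.1, 17.8, 15.8, 22.6 and 24.7 CPM in day 10 sons, against 4.43, 4.97, 2.23 and 4.404 CPM in day 0 sons (2.39 ± 0.23, edgeR adjusted p = 2.25e-05). Ilp2, an insulin-like peptide of brain cells, was at 30.6, 28.7, 21.2, 29.7 and 37.2 CPM in day 10 sons, against 10.4, 8.39, 7.75 and 9.26 CPM in day 0 sons (1.72 ± 0.16, edgeR adjusted p = 1.8e-05). Akh, the adipokinetic hormone, was at 16.7, 12.8, 9.37, 18.3 and 13.8 CPM in day 10 sons, against 7.41, 3.64, 2.63 and 3.95 CPM in day 0 sons (1.69 ± 0.29, edgeR adjusted p = 0.00112). For these 3 peptide genes the groups did not overlap, and m23 was the lowest day 10 library. SIFa, a peptide of a few brain neurons, fell to 1.59998, 1.68, 2.62, 2.496 and 2.39 CPM in day 10 sons, against 3.87, 8.46, 7.88 and 7.91 CPM in day 0 sons (-1.705 ± 0.26, edgeR adjusted p = 0.000484). The list's largest change was in Nplp3, a peptide precursor gene, at 89.98, 109.9, 65.7, 119 and 135 CPM in day 10 sons, against 3912, 4281, 5531 and 5157 CPM in day 0 sons (-5.51 ± 0.22, edgeR adjusted p = 7.53e-08). Nplp3 lies at chr3L:16318024-16318690, at the end of a stretch of chromosome arm 3L in which 8 genes fell over 8-fold.

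Of 40 synapse and neurotransmission genes, 13 fell and 1 rose (median -0.17), or 4 and 0 in the fit of all sons. Among them was Gad1, which makes the transmitter GABA, at 167, 201, 158, 183 and 198 CPM in day 10 sons, against 264, 318, 420.3 and 366 CPM in day 0 sons (-0.92 ± 0.13, edgeR adjusted p = 0.000304). DAT, the dopamine transporter, was at 8.28, 5.39, 6.16, 7.37 and 8.37 CPM in day 10 sons, against 13.2, 12.5, 18.9 and 17.4 CPM in day 0 sons (-1.13 ± 0.17, edgeR adjusted p = 0.000495). Both were lower in all 5 day 10 libraries. Of 35 phototransduction genes, 9 rose and 1 fell (median 0.200), or 5 and 0 in the fit of all sons. The other 25 did not pass, and over all genes tested 21.8% rose and 16.6% fell. The main rhodopsin gene of the eye, ninaE, was at 4862, 5528, 3306, 4744 and 6629 CPM in day 10 sons, against 1899.9, 1318, 1032 and 1706 CPM in day 0 sons, with m23 the lowest of day 10 (1.75 ± 0.23, edgeR adjusted p = 0.000172). The channel gene trpl rose by 1.65 ± 0.19 on the log2 scale (edgeR adjusted p = 7.5e-05). Arr2, the arrestin that quiets rhodopsin, was at 2032, 2215, 1381, 2006 and 2914 CPM in day 10 sons, against 1112, 859, 629.9 and 1053 CPM in day 0 sons (1.21 ± 0.22, edgeR adjusted p = 0.00151). The rhodopsin gene Rh6 rose too, but m23 on day 10 lay within the day 0 range, at 24.7, 34.4, 13.9, 33.9 and 27.3 CPM in day 10 sons, against 14.3, 14.9, 8.08 and 8.99 CPM in day 0 sons (1.21 ± 0.28, edgeR adjusted p = 0.00577), and it did not pass in the fit of all sons.

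Among 37 odorant binding protein genes tested, 17 rose and 6 fell (median 0.57), with large changes both ways. Obp83g was at 0.847, 1.43, 1.27, 1.07 and 1.54 CPM in day 10 sons, against 14.8, 30.2, 37.3 and 23.7 CPM in day 0 sons (-4.41 ± 0.29, edgeR adjusted p = 1.85e-06). Obp56d was at 462, 512, 409, 389 and 356 CPM in day 10 sons, against 144, 151, 44.98 and 98.6 CPM in day 0 sons (1.96 ± 0.301, edgeR adjusted p = 0.000531). Its neighbour in name, Obp56e, was at 15.5, 26.9, 17.6, 29.5 and 24.7 CPM in day 10 sons, against 141, 163, 74.8 and 165 CPM in day 0 sons (-2.58 ± 0.25, edgeR adjusted p = 2.86e-05). The 3 genes had no overlap between days, and m9 was the lowest day 0 library for Obp56d and Obp56e and the highest for Obp83g. Of 13 chemosensory and antennal genes, 11 rose and 1 fell (median 0.67), with 5 rises in the fit of all sons. CheB42a, of a family linked to pheromone sensing, was at 13.6, 16.6, 8.87, 19.3 and 14.7 CPM in day 10 sons, against 5.08, 3.85, 4.27 and 3.41 CPM in day 0 sons (1.81 ± 0.22, edgeR adjusted p = 0.000113). Phk-3, the 1 that fell, was at 16.6, 17.9, 15.5, 14.9 and 18.1 CPM in day 10 sons, against 98.5, 77.4, 50.5 and 59.5 CPM in day 0 sons (-2.103 ± 0.18, edgeR adjusted p = 9.34e-06). Of 9 genes of the clock and its output, 6 rose and 0 fell (median 0.601), with 3 rises in the fit of all sons. The core gene tim was at 237, 236, 234, 239 and 244 CPM in day 10 sons, against 119, 133, 114.9 and 114 CPM in day 0 sons (0.98 ± 0.06, edgeR adjusted p = 1.62e-06). The light receptor gene cry rose by 0.88 ± 0.102 on the log2 scale (edgeR adjusted p = 8.43e-05). The output gene to, a carrier linked to feeding, was at 403, 227, 272, 327 and 390.3 CPM in day 10 sons, against 31.03, 21.5, 11.8 and 23.1 CPM in day 0 sons (3.89 ± 0.28, edgeR adjusted p = 4.06e-06). All 3 were higher in every day 10 library. The sources used here give no hour of collection, and its part in the clock gene values was not tested. Of 32 ecdysone and juvenile hormone genes, 9 rose and 6 fell (median -0.08), where 21.8% and 16.6% of all genes tested did. The juvenile hormone synthesis gene jhamt was at 7.25, 8.08, 4.73, 8.201 and 11.6 CPM in day 10 sons, against 2.98, 1.82, 1.18 and 1.797 CPM in day 0 sons (2.04 ± 0.31, edgeR adjusted p = 0.00047). The ecdysone-induced gene Eip74EF was at 23.1, 25.1, 20.7, 24.6 and 23.5 CPM in day 10 sons, against 26.7, 48.9, 75.7 and 39.5 CPM in day 0 sons (-1.03 ± 0.24, edgeR adjusted p = 0.0061).

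Testis genes had small log2 fold changes, and some accessory gland genes had large ones. None of 18 meiotic arrest genes, which switch on the program of spermatocytes, passed by edgeR or DESeq2 (median -0.01, 0 with an unadjusted p under 0.05), and of 43 cell cycle and DNA replication genes 2 rose and 3 fell, with 1 to 5 that fell when 1 library was left out and 0 in the fit of all sons. Of 48 spermatid and sperm genes 17 fell and 2 rose, with log2 fold changes between -0.496 and 0.562 over all 48 (median -0.18), and the fallen count was 26 without m23, 28 by DESeq2, and 0 both in the fit of all sons and with m8 kept. Pif1A was at 629, 742, 699, 643 and 618 CPM in day 10 sons, against 424, 421, 514 and 445 CPM in day 0 sons and rose (0.56 ± 0.09, edgeR adjusted p = 0.000551).

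Of 65 seminal fluid protein genes of the accessory gland 27 fell and 5 rose (median -0.38), or 17 and 0 in the fit of all sons. With m8 kept 0 fell. Sfp79B was at 0, 0.337, 0.0844, 0.475 and 0.341 CPM in day 10 sons, against 22.3, 14.8, 7.75 and 14.8 CPM in day 0 sons (-5.899 ± 0.47, edgeR adjusted p = 7.3e-06). Acp76A, a secreted serpin gene, was at 74.7, 90.5, 107, 81.5 and 89.6 CPM in day 10 sons, against 705, 484, 277 and 534 CPM in day 0 sons (-2.49 ± 0.22, edgeR adjusted p = 1.57e-05). Spn77Bb was at 396, 304, 391, 313 and 326 CPM in day 10 sons, against 2715, 1711, 700.5 and 2149 CPM in day 0 sons (-2.39 ± 0.31, edgeR adjusted p = 0.000159). Acp62F, a protease inhibitor passed to the female at mating, was at 88.8, 88.7, 94.3, 87.4 and 117 CPM in day 10 sons, against 506, 396, 285 and 369 CPM in day 0 sons (-2.03 ± 0.15, edgeR adjusted p = 5.1e-06). For these last 3 genes m6 was the highest and m9 the lowest library of day 0, and no library crossed between days. Over the whole list the sum was 9608, 9475, 9929, 8938 and 11242 CPM in day 10 sons, against 20549, 15503, 8786 and 16514 CPM in day 0 sons, so that m9 lay below every day 10 library and m6 was the highest. Of 10 ejaculatory duct and bulb genes 2 fell and 1 rose, and 7 fell without m9 and 1 in the fit of all sons. The 1 that rose, Met75Ca, rested on m24, at 1.13, 1.77, 1.098, 21.6 and 2.13 CPM in day 10 sons, against 0.242, 1.33, 0.263 and 0.809 CPM in day 0 sons (2.999 ± 1.08, edgeR adjusted p = 0.0495). Without m24 its log2 fold change was 1.18 (edgeR adjusted p = 0.112). Of the 9 female germline, yolk and eggshell genes that passed the filter, 1 rose and 1 fell, with summed levels of 54.2 to 62.7 CPM in day 10 sons, against 50.6 to 55.9 CPM in day 0 sons. The 1 that rose was the yolk protein gene Yp3, at 12.7, 15.1, 9.204, 9.15 and 13.6 CPM in day 10 sons, against 8.54, 5.88, 2.95 and 6.65 CPM in day 0 sons (1.01 ± 0.27, edgeR adjusted p = 0.0141), which did not pass in the fit of all sons.

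Some of the largest changes, that of Acp1 among them, fell outside every list. CG43055 (chr2L:4411155-4411824) had the largest rise by the naming rule, at 11.8, 26.6, 64.6, 34.6 and 33.2 CPM in day 10 sons, against 0.0806, 0.49, 0.328 and 0.18 CPM in day 0 sons (6.87 ± 0.64, edgeR adjusted p = 1.94e-05). CG11854, which lies beside to on chromosome arm 3R, was at 17.9, 9.76, 12.8, 12.4 and 15.03 CPM in day 10 sons, against 0.806, 0.769, 0.328 and 0.719 CPM in day 0 sons (4.37 ± 0.27, edgeR adjusted p = 1.31e-06). CheB38b, of a family of pheromone-sensing proteins, was at 11.9, 14.98, 7.35, 10.6 and 13.9 CPM in day 10 sons, against 1.05, 0.699, 0.131 and 0.719 CPM in day 0 sons (4.199 ± 0.38, edgeR adjusted p = 1.76e-05). Both were highest in m6 among day 0 libraries and lowest in m9. Srg3 rose to 97.4, 111, 102, 119 and 112 CPM in day 10 sons, against 14.8, 4.13, 1.18 and 4.31 CPM in day 0 sons (4.17 ± 0.497, edgeR adjusted p = 0.000102). CG9676 was at 50.8, 68.4, 50.3, 85.7 and 50.7 CPM in day 10 sons, against 15.3, 1.75, 0.197 and 5.12 CPM in day 0 sons (3.49 ± 0.68, edgeR adjusted p = 0.00239). The pseudogene CR43086 was at 22.5, 23.5, 17.1, 12.2 and 20.1 CPM in day 10 sons, against 1.05, 1.54, 0.591 and 1.62 CPM in day 0 sons (4.01 ± 0.29, edgeR adjusted p = 3.35e-06). CG8329 was more uneven on day 0, at 114, 152, 104, 177 and 133 CPM in day 10 sons, against 19.6, 4.34, 0.394 and 12.5 CPM in day 0 sons, and its lowest day 0 library was m9 (3.92 ± 0.64, edgeR adjusted p = 0.000781). No day 0 library of these rises reached the day 10 range, which the naming rule required. Among the falls, CG8736 was at 0.753, 0.926, 0.422, 1.07 and 1.37 CPM in day 10 sons, against 259, 997, 1976 and 743 CPM in day 0 sons (-10.09 ± 0.66, edgeR adjusted p = 1.9e-06). CG12998 on the X chromosome was at 1.88, 0.0842, 0.338, 0.475 and 1.28 CPM in day 10 sons, against 65.9, 353, 750.2 and 262 CPM in day 0 sons (-8.77 ± 0.81, edgeR adjusted p = 1.93e-05). CG5172, next to CG12998, was at 0.188, 0.0842, 0, 0.119 and 0.0854 CPM in day 10 sons, against 13.5, 247, 461 and 142 CPM in day 0 sons (-11.04 ± 1.25, edgeR adjusted p = 7.19e-05). Pxd, a peroxidase gene, was at 0.188, 0, 0.253, 0.119 and 0.0854 CPM in day 10 sons, against 25.5, 70.9, 118 and 46.01 CPM in day 0 sons (-8.88 ± 0.65, edgeR adjusted p = 3.98e-06). In all 4 of these genes m9 was the highest and m6 the lowest library of day 0, with several-fold between them. The 5 day 10 libraries lay below every day 0 library, again a condition of the naming rule.

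Whether the change with age depended on the mother's diet was tested as the difference between log2 fold changes, HFD minus the other line, in fits of 4 groups. For HFD against CD sons 12726 genes were tested, and 3 passed, all lower by this difference, or 0.0236% of genes (1309 had an unadjusted p under 0.05, and DESeq2 called 11 higher and 10 lower). Libraries m1, m3 and m4 of the CD day 0 sons held osk at 18.03, 198 and 47.2 CPM, where the other 16 libraries of this fit were at 0.48 CPM at most. Obp99b, an odorant binding protein gene also expressed in male fat body (chr3R:29716254-29716896), ranked first. On the scale of that fit it was at 662, 548, 359, 231 and 541 CPM in day 10 and 35.1, 50.3, 40.2 and 37.3 CPM in day 0 sons of HFD mothers, and at 479, 774, 709, 439.6 and 289 CPM in day 10 and 6.13, 5.93, 5.73, 6.01 and 9.66 CPM in day 0 sons of CD mothers. Day 10 levels of the 2 lines overlapped, and every HFD day 0 library lay above every CD day 0 library. Its log2 fold change was 3.52 in HFD sons and 6.32 in CD sons, a difference of -2.79 ± 0.404 (edgeR adjusted p = 0.0101).

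The other 2 genes, CG31775 and CG42586, had equal counts in all 87 progeny libraries and are annotated with the same length of 680 bases on chromosome arm 2L, at chr2L:14737090-14737769 and chr2L:14741161-14741840, so they are 1 measurement whose source between the copies is uncertain. Each averaged 2.03 ± 0.224 CPM in day 10 and 8.99 ± 1.79 CPM in day 0 sons of HFD mothers, and 2.69 ± 0.549 CPM in day 10 and 3.66 ± 0.51 CPM in day 0 sons of CD mothers (SD, n = 5, 4, 5 and 5). The difference of log2 fold changes was -1.69 ± 0.25 (edgeR adjusted p = 0.0101). Next in rank were CG17107 at -1.33 ± 0.26 and sug, a sugar-responsive transcription factor gene, at 1.22 ± 0.24, both with edgeR adjusted p = 0.164. The sug level was 37.3 ± 5.29 CPM in day 10 and 9.52 ± 1.84 CPM in day 0 sons of HFD mothers, and 23.4 ± 3.74 CPM in day 10 and 13.9 ± 3.46 CPM in day 0 sons of CD mothers. Without m1, m3 and m4 no gene passed, and the difference was -2.56 for Obp99b and -1.70 for CG31775 (edgeR adjusted p = 0.385 and 0.228). With m6 and m9 left out no gene passed either, at differences of -2.88 and -1.55 (edgeR adjusted p = 0.13 and 0.201).

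Library m27 of the HSD day 10 sons held betaTub85D at 22.4 CPM, where the other 4 were at 652 to 902 CPM, and Yp1 at 22.2 CPM, where they were at 2.61 CPM at most. For HFD against HSD sons 12722 genes were tested and 0 passed (0% of genes, 360 with an unadjusted p under 0.05, and 2 by DESeq2). CG34283 ranked first at 2.42 ± 0.47 and CG9416 second at 1.46 ± 0.295, both with edgeR adjusted p = 0.719, and these are the 2 that DESeq2 called. CG9416 was at 30.7, 34.8, 44.4, 41.7 and 36.9 CPM in day 10 and 24.4, 16.1, 14.3 and 19.7 CPM in day 0 sons of HFD mothers, and at 10.1, 16.6, 7.53, 15.005 and 14.5 CPM in day 10 and 14.6, 21.3, 16.8, 20.4 and 13.9 CPM in day 0 sons of HSD mothers. The day 10 groups of the 2 lines did not overlap. CG42366, to and CG8160 followed, with differences of 1.58 ± 0.34, 1.43 ± 0.33 and 1.88 ± 0.48 (edgeR adjusted p = 0.974 for each). For to this meant a log2 fold change of 3.89 in HFD sons and 2.45 in HSD sons. Without m27 no gene passed either, with 521 genes at an unadjusted p under 0.05, and the differences were 2.23 for CG34283, 1.57 for CG9416 and 1.51 for to (edgeR adjusted p = 0.244, 0.244 and 0.443).

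**Figure D4:**
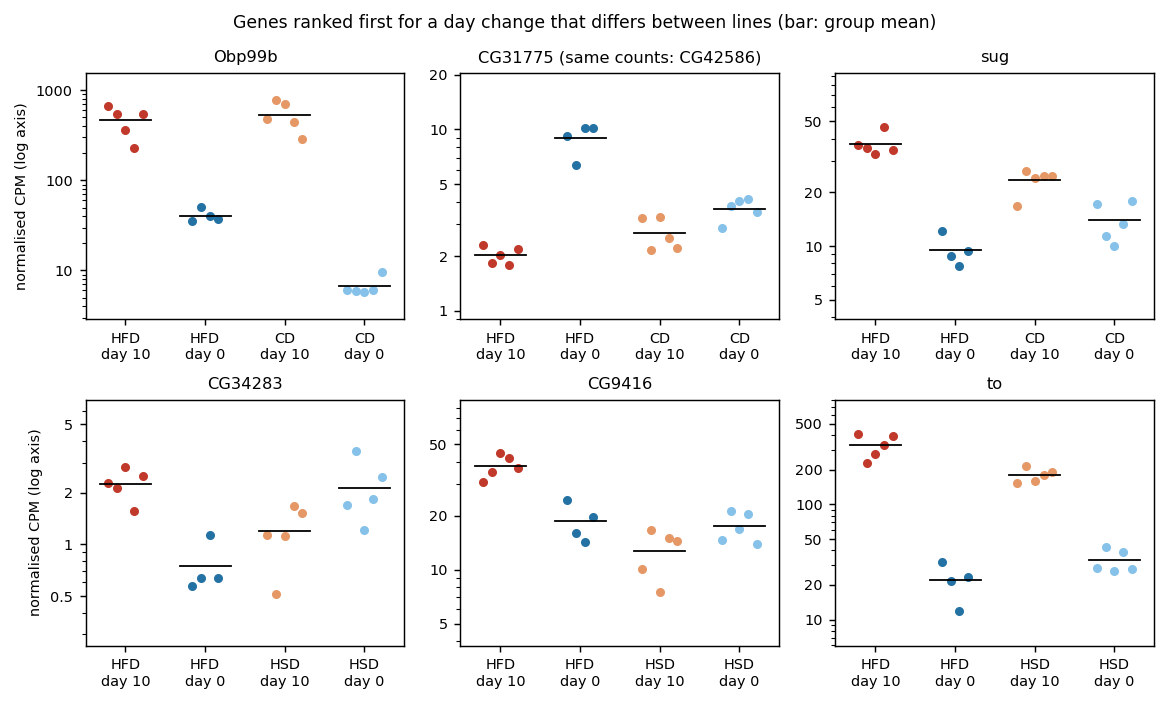
Normalised CPM on a log axis, per library with a bar at each group mean, of 3 genes ranked high for a day change that differed between HFD and CD sons (top row) and between HFD and HSD sons (bottom row). HFD day 0 points of Obp99b lie between 35.1 and 50.3 CPM, above the CD day 0 points between 5.73 and 9.66 CPM.

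HFD sons share no library with the other lines, so the lists of changed genes were set side by side. Of the 4802 genes that changed in HFD sons, 2971 changed in the same direction in CD sons, which is 61.9% of the HFD list and 70.3% of the 4226 genes called in CD sons in the joint fit, and 10 changed in the opposite direction. With HSD sons 2726 were shared, 56.8% of the HFD list and 82.1% of the 3320 genes called in HSD sons, and 2 were opposite. The background share of genes called was 33.2% in CD and 26.1% in HSD sons. Without m1, m3 and m4, 2998 were shared with CD sons, 62.4% of the HFD list and 80.6% of the 3720 called there (28.97% of genes), and 1 was opposite. Without m27, 2804 were shared with HSD sons, 58.4% of the HFD list and 84.9% of the 3301 called there (25.98% of genes), and 2 were opposite.

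**Figure D5:**
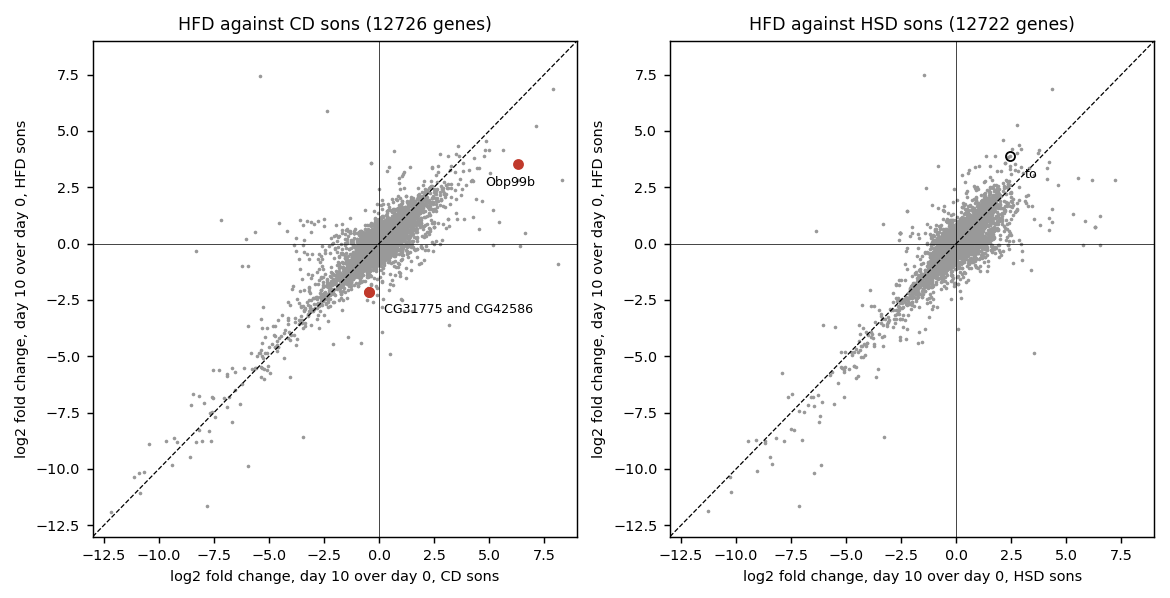
Log2 fold change, day 10 over day 0, of each gene in HFD sons (y axis) against CD sons (left, 12726 genes) and HSD sons (right, 12722 genes), with a dashed line where both are equal. Filled points mark the 3 genes whose difference passed the test, with Obp99b at 3.52 in HFD and 6.32 in CD sons, and the open circle marks to.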

How the data were processed

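Per the labels' protocols, total RNA of whole flies was taken up in Qiazol and cleaned on columns with a DNase step. The deposited values are counts per gene, made by the authors with kallisto (version not given in the sources used here) and R 4.2.0 with DESeq2 1.36.0 on build BDGP6, per the submitters' processing notes; strandedness, flies per library and batches are not given there. Gene names and coordinates came from the Ensembl annotation BDGP6.54, release 115, which held all but 10 of the 14312 genes in the table.

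Counts of the progeny libraries were tested with edgeR 4.0.16 in R 4.3.3 (filterByExpr at its minimum count 10 and total 15, TMM scaling, quasi-likelihood F test, Benjamini-Hochberg adjustment, threshold 0.05). CPM were scaled by TMM, and the SE of a log2 fold change is its size divided by the square root of F. Totals between 8326825 and 16040487 counts limit the precision of genes with few counts. No pair of libraries within a group agreed within sampling noise (16 pairs, lowest chi-square per degree of freedom 6.78).

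Genes were named by a rule: the 12 largest rises and falls and the 6 smallest p-values each way among genes that passed, did not overlap between days and averaged at least 10 CPM on the higher day, up to 6 members of each of 45 gene lists, and the 5 smallest p-values of each interaction. The groups, the lists and the tests were chosen with earlier results of these data known. Alternatives were DESeq2 1.42.0, median-of-ratios scaling, no filter, m8 kept, all male progeny in 1 fit, m1, m3 and m4 left out, and each library left out in turn; leaving out m6 and m9 together was added after seeing the data. The code was tested on simulated data.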

Additional observations from a re-analysis of the deposited data

Results flagged for a closer look

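Some values lay far from the others of their group. The gap of 1 library to its nearest neighbour took most of the range in 26 of 384 groups examined. Chance alone gives about 1 in 20, so many of the flags below may be no more than chance. On day 10, m25 was far above the other sons for Acp62F (117 CPM), the antimicrobial peptide gene Dro (14.4 CPM), LysD (72.3 CPM) and the lysozyme sum (143 CPM). Library m24 stood above the rest of day 10 for FASN1 (2531 CPM), cry (185 CPM), sug (46.2 CPM), Met75Ca (21.6 CPM, where the others lay between 1.10 and 2.13 CPM) and Fbp1, of which it held the only count (0.119 CPM). Library m23 was apart for both amylase copies, Amy-d (444 CPM) and Amy-p (688 CPM), for the spermatid sum (20098 CPM) and, on the low side, for Tat (135 CPM). Pdk was lowest in m21 (192 CPM), and the TCA cycle sum was highest in m22 (10125 CPM).

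On day 0, m10 was above the others for Amy-d (116 CPM) and Amy-p (230.2 CPM) and below them for y (12.1 CPM). Library m6 was below the others for SIFa (3.87 CPM), Dro (0.0806 CPM) and the tyrosine breakdown sum (294 CPM). Library m9 was above them for CG34283 (1.12 CPM) and the chromatin sum (1138 CPM), and m7 for NimC4 (9.58 CPM). Among CD sons, m5 was above the other day 0 libraries for Obp99b (9.66 CPM), and m16 below the other day 10 libraries for sug (16.9 CPM).

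The change with age differed between HFD and CD sons, by the test of the difference, for Obp99b (-2.79 on the log2 scale) and for the pair CG31775 and CG42586 (-1.69 each). These calls were lost with m8 kept, in the fit of all sons, without m1, m3 and m4, and without m6 and m9. Library m8, which no comparison used, had 1328 CPM of osk and 9714 CPM of Yp1, far above every other HFD son.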

How the results depend on the processing

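In the main comparison the counts of genes stayed within 1.5 times of 2723 higher and 2079 lower with DESeq2, median-of-ratios scaling, no filter and m6 and m9 left out, and leaving out 1 library gave 4052 to 5052 genes in all (2176 to 2709 higher, 1742 to 2448 lower). With m8 kept 545 genes were higher and 182 lower, 727 in all, and with all male progeny in 1 fit 1240 were higher and 1015 lower, 2255 in all. Of 137 genes examined singly that passed, Yp3 (-6.32) and Myc (-0.36) changed direction with m8 kept and 50 lost their call. In the fit of all sons 13 lost it: Lsp1alpha, ND-51, mt:ND4, Yp3, Amy-p, Drs, BaraA1, PGRP-SB1, CG34283, CG9416, AttA, Dro and Rh6. Met75Ca passed only narrowly and lost its call without any of m22, m24, m25, m6, m7, m9 or m10. No other gene named as changed lost its call on leaving out 1 library. For HFD against CD sons, DESeq2 called 11 higher and 10 lower, 21 in all. No gene passed (0 lower, 0 in all) with m8 kept, with all male progeny in 1 fit, without m1, m3 and m4, or without m6 and m9. Leaving out 1 library gave 3 to 12 genes, 0 to 1 higher and 3 to 12 lower, with 12 without m9. For HFD against HSD sons DESeq2 called 2, all higher, and leaving out 1 library gave 0. Median-of-ratios scaling set the median change of all genes at 0.00, against 0.03. Of the counts over lists, 70 dropped by over 1.5 times with m8 kept and 43 in the fit of all sons. By DESeq2 7 neuropeptide genes fell, against 4. The causes were not tested. No paired analysis was possible because the replicate numbers are library names and the groups share none.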

Other observations

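Among lists not described above, gut and pigment genes changed in part. Of 30 trypsin and Jonah protease genes, digestive enzymes with close copies, 4 fell and 2 rose (1 rose in the fit of all sons). The other 24 did not pass, where 38.4% of all genes tested passed. Their summed level ranged widely within each day, between 2127 and 5032 CPM in day 10 sons and between 893 and 5217 CPM in day 0 sons over the list. The largest change was that of Jon25Bi, at 4.52, 3.704, 6.16, 1.55 and 16.6 CPM in day 10 sons, against 82.5, 28.96, 8.798 and 85.3 CPM in day 0 sons (-2.94 ± 0.699, edgeR adjusted p = 0.00718), and m25 of day 10 lay within the day 0 range. Of 20 genes for urate, pteridines and eye pigment, 10 rose and 6 fell (5 rose in the fit of all sons). The gene v, tryptophan dioxygenase of the brown pigment pathway, was at 39.1, 50.9, 43.3, 53.6 and 51.2 CPM in day 10 sons, against 22.9, 12.4, 4.79 and 11.2 CPM in day 0 sons (1.900 ± 0.33, edgeR adjusted p = 0.00121). Prat2, of purine synthesis, was at 162, 219, 167, 239 and 233 CPM in day 10 sons, against 128, 70.9, 34.1 and 55.3 CPM in day 0 sons (1.499 ± 0.32, edgeR adjusted p = 0.00391). In both genes m6 was the day 0 library closest to day 10. Of 27 genes for cell adhesion and patterning in the pupa, 8 fell and 3 rose (5 fell in the fit of all sons). The giant apical matrix gene dpy was at 100.2, 107, 95.3, 102 and 114 CPM in day 10 sons, against 207, 267, 377 and 258 CPM in day 0 sons (-1.42 ± 0.15, edgeR adjusted p = 3.67e-05), and f, an actin bundling gene of bristles, was at 1.04, 0.926, 1.44, 1.55 and 1.45 CPM in day 10 sons, against 2.42, 4.41, 7.94 and 4.04 CPM in day 0 sons (-1.89 ± 0.34, edgeR adjusted p = 0.00136). Hr4, an ecdysone response gene, fell, with m9 by far its highest day 0 library and m6 within the day 10 range, at 6.31, 5.72, 6.42, 4.87 and 7.17 CPM in day 10 sons, against 6.53, 12.2, 26.8 and 9.26 CPM in day 0 sons (-1.17 ± 0.35, edgeR adjusted p = 0.0228).

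Some of the genes that changed over 8-fold were neighbours. Of 116 such genes with at least 10 CPM on the higher day, 34 stood in 12 runs of 2 or more whose starts lay within 20000 bases of each other, and 0 of the runs held both directions. The longest, chr3L:16271282-16318690, held 8 genes that all fell, from CG13067 to Nplp3. The run chr2L:7734415-7753186 held CG31904, Acp1, CG7214 and CG7203, which all fell. The run of to and CG11854 (chr3R:25240180-25243262) was the 1 run that rose. How often runs of this kind occur among genes drawn at random was not tested.

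By values alone, the median log2 fold change of a list differed by over 0.5 between HFD and CD sons in 10 of the 45 lists, and between HFD and HSD sons in 5. Without m1, m3 and m4 the first count was 5, and without m27 the second was 4. Female germline genes had a median of 0.17 in HFD sons and -3.29 in CD sons, and of 0.19 in HFD sons and 0.17 in CD sons without m1, m3 and m4. Cell cycle genes had -0.04 in HFD sons and -0.83 in CD sons, and -0.01 in HFD sons and -0.14 in CD sons without those libraries. Lysozyme genes had -2.57 in HFD sons and 0.15 in CD sons (-1.45 in HFD sons and 0.02 in CD sons without those libraries). Gut trypsin and Jonah genes had -0.204 in HFD sons and 1.26 in CD sons (-0.17 in HFD sons and 1.01 in CD sons without them). Antimicrobial peptide genes had 0.71 in HFD sons and 2.91 in CD sons, and 0.73 in HFD sons and 3.15 in CD sons without m1, m3 and m4. Against the HSD line they had 0.74 in HFD sons and 2.45 in HSD sons, a gap that rested on m27, since without it they had 0.75 in HFD sons and 0.71 in HSD sons. Seminal fluid genes had -0.41 in HFD sons and 0.15 in CD sons, but -0.38 in HFD sons and -0.71 in HSD sons, so that HFD sons lay below the CD line and above the HSD line. Without m1, m3 and m4 they had -0.38 in HFD sons and 0.06 in CD sons. Without m27 they had -0.38 in HFD sons and -0.63 in HSD sons. Of these gaps only the first was over 0.5. No member of these 6 lists passed the test of the difference (edgeR adjusted p over all genes). Against CD sons an unadjusted p under 0.05 was held by 7 of 18 antimicrobial peptide genes, 33 of 65 seminal fluid genes, 9 of 15 female germline genes, 3 of 5 lysozyme genes, 12 of 30 gut protease genes and 13 of 43 cell cycle genes. Without m1, m3 and m4 these counts were 1 of 19, 8, 0, 3 of 6, 6 and 3.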
